A study of Mus musculus with 4 samples.

Results

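The genes described here encode Rab GTPases, the family of small membrane-bound GTPases that directs vesicle traffic, and were measured in blood-forming stem and progenitor cells of mice with and without deletion of B-myb. Members were the gene rows whose name is Rab, a number and at most 1 letter, which gave 55 of the 30854 gene rows on the arrays. Genes with longer names, such as the Rab-like and Rab-interacting genes, were not members. RNA came from LSK+ cells of bone marrow, sorted by FACS. LSK denotes cells that lack lineage markers and carry Sca-1 and Kit, a fraction rich in blood stem cells. There were 2 control samples and 2 samples from B-myb floxed-MxCre mice, called knockout below, with 1 array each and replicate numbers 1 and 2 for the 2 controls against 1 and 3 for the 2 knockouts. All mice were C57BL6/J, aged 12 to 16 weeks, and both genotypes received pIpC 1 week before harvest. Each sample pooled 3 to 5 mice. In these mice Cre is driven by the Mx promoter, which responds to interferon and is therefore switched on by pIpC in many cell types and not in stem cells alone. The labels call the other mice control and do not say whether they carried the floxed alleles or the Cre transgene.

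A Rab protein switches between a GDP-bound form in the cytosol and a GTP-bound form on a membrane. Guanine nucleotide exchange factors (GEFs) load GTP, GTPase-activating proteins (GAPs) end the active state, and GDP dissociation inhibitors return the prenylated protein to the cytosol. In the active state each Rab recruits effectors that move, tether or fuse vesicles, so that different Rabs mark the Golgi, early, recycling and late endosomes, and secretory granules. In blood cells, Rab27a and Rab27b are best known for the docking of cytotoxic and platelet granules, and Rab32 and Rab38 for the building of lysosome-related organelles.

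No Rab gene passed the test over all genes with quantile normalization, and the median change of the family, -0.02, was close to that of all genes, -0.04. The largest difference was in Rab6b, a Golgi Rab best known from the brain. Its estimate was 4.21-fold lower in the knockout after background correction and quantile normalization, and Rab6b was not above background in the knockout. Other settings gave smaller changes on the log2 scale, -1.67 with cyclic loess, -1.20 with a larger offset and -0.82 without background correction. With median scaling of the arrays 4 Rab genes passed, in a setting where 8.15% of all genes did. Of the granule Rabs above background on all 4 arrays, Rab27a and Rab3d differed by 0.08 and 0.23 on the log2 scale (below 0 with median scaling of the arrays), while Rab32 and Rab38 were lower by 0.36 and 0.45. For Rab genes that share a number, the difference on the same array did not overlap between genotypes in 9 of 10 pairs. Among all 820 pairs of tested Rab genes 54.6% did not overlap. The comparison was added after the values were seen, and no pair can pass an exact test. Rab6a against Rab6b had the largest shift, and Rab6b passed the detection filter through the control arrays alone. Fewer cells of a type and less RNA per cell cannot be told apart in these bulk samples.

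Because the Rab6 genes carried the largest shift, the stretches of 250 bases upstream of their annotated starts are shown. They are taken from RefSeq on GRCm38.p6, both on the plus strand, at chr7:100607336-100607585 for Rab6a and chr9:103111824-103112073 for Rab6b. Capitals mark CCAAT or its reverse complement ATTGG, the letters of the NF-Y box often found in promoters of cell cycle genes.
Rab6a: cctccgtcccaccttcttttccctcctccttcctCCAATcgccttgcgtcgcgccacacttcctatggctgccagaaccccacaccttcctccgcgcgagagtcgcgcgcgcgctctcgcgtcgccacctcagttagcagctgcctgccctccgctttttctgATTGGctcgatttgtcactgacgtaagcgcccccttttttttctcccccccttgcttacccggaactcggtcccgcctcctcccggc
Rab6b: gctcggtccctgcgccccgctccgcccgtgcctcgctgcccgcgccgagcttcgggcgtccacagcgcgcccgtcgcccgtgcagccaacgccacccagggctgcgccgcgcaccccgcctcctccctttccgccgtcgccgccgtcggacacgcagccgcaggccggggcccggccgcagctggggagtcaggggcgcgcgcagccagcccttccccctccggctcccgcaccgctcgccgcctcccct
The Rab6a stretch held 2 CCAAT matches, 216 and 87 bases before the start, and the Rab6b stretch held 0. Neither held TTTGAA, the letters of the CHR element through which the B-Myb and MuvB complex is known to act, or AACGG, a core of the Myb binding site. Both strands were searched, and the 3 motifs do not overlap in these stretches. Over the 32851 promoter entries of the table, 33.8% held CCAAT, 16.0% held TTTGAA and 14.5% held AACGG in the same window. Over the 57 entries that matched 45 of the 55 Rab rows, the shares were 42.1%, 14.0% and 21.1%. The Rab6a stretch had a GC content of 62.8% and the Rab6b stretch one of 80.8%.

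Most Rab genes were above background in LSK+ cells. With a deposited detection p under 0.05 as the limit, 23 of the 55 rows were detected on 4 arrays, 11 on 3, 8 on 2, 2 on 1 and 11 on none. Per array this came to 40 rows on each control array, 37 on knockout replicate 1 and 26 on knockout replicate 3. Over all genes the number detected was 12297 and 13439 on the control arrays, 10761 on knockout replicate 1 and 8797 on knockout replicate 3, so knockout replicate 3 was lowest for Rab genes and for all genes. The 5 Rab genes with the highest mean level were Rab2a, Rab31, Rab8b, Rab11b and Rab32, at 5.72 to 27.8 times the median of the same array's negative control probes. Rab2a acts between the endoplasmic reticulum and the Golgi, Rab31 between the Golgi and endosomes, and Rab8b and Rab11b carry cargo to the cell surface. Probes differ in brightness, so this is no order of transcript abundance.

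Among the Rabs best known from granules, Rab27b, Rab3b and Rab3c were not above background on any array. The deposited intensity of Rab27b, the platelet granule Rab, was 90.0 and 81.6 for the 2 controls against 91.0 and 98.9 for the 2 knockouts. The 95th percentile of the negative control probes on the same arrays was 94.8, 85.3, 101.5 and 112.8, so Rab27b lay under it on all 4. The same held for 10 rows in all, the others being Rab2b, Rab3b, Rab3c, Rab9b, Rab20, Rab23, Rab25, Rab30 and Rab40b. Rab44, a further granule Rab, was not analysed here. Detection p and intensity disagreed for a few rows. Rab12 and Rab18 lay above that percentile on all 4 arrays, yet their detection p was under 0.05 on 0 and 1 of them. Rab11b at an intensity of 579.0 on knockout replicate 3 had a detection p of 0.372.

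**Figure D1:**
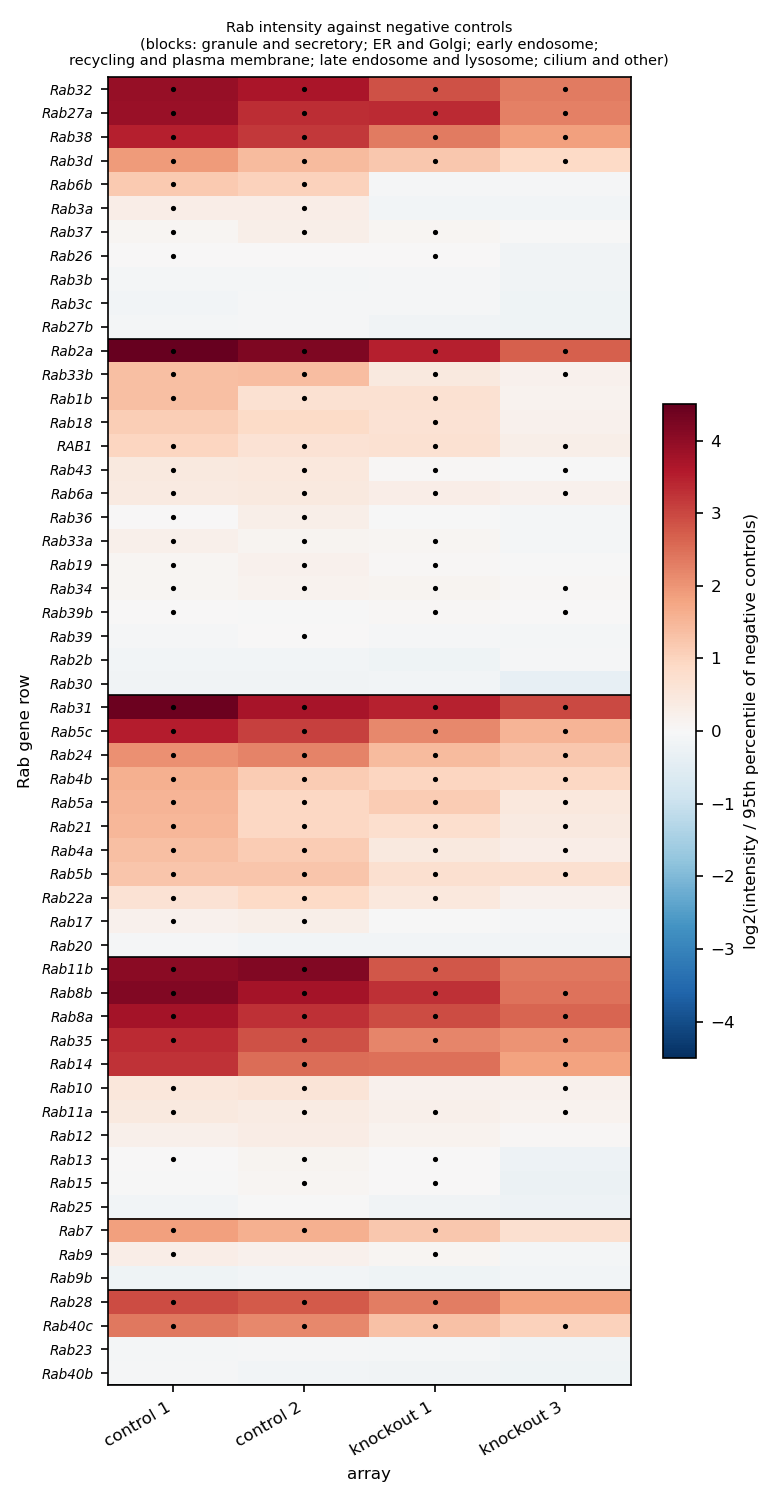
Deposited intensity of the 55 Rab gene rows (y axis, grouped by role in the order given in the title) on the 4 arrays (x axis), as log2 of the ratio to the 95th percentile of the array's negative control probes, with black dots where the detection p is under 0.05. Rab27b, Rab3b and Rab3c are pale on all 4 arrays, Rab6b and Rab3a have dots on the control arrays only, and knockout replicate 3 has the fewest dots (26 of 55).

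Changes were read for the 42 rows detected on at least 2 arrays, of which 41 entered the fit over 11538 genes. The row left out was Rab43, because a brighter row under another name maps to the same gene. At that limit, Rab14, Rab15, Rab17, Rab26, Rab36, Rab3a, Rab6b and Rab9 lay just inside with detection on 2 arrays, and Rab18 and Rab39 just outside with detection on 1. Levels below are log2 intensities after background correction and quantile normalization, and changes are knockout minus control with the standard error (SE) of limma's fit, with 2 arrays per genotype. Adjusted p-values are limma's with the Benjamini-Hochberg method over all 11538 genes. The samples are separate pools of mice, and with so few of them the p-values rest on a variance shared over all genes.

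Over all 11538 genes 0 passed an adjusted p of 0.05 in limma (0% of genes), and 0 of the 41 Rab genes did. With median scaling 4 of the 41 (9.76%) and 8.15% of all genes passed, and at an unadjusted p under 0.05 0 Rab genes were higher and 14 lower (34.1%, against 38% of all genes in either direction). In the quantile-normalized data, at an unadjusted p under 0.05 there were 8 Rab genes, or 19.5%, against 15.3% of all genes. Of these, 2 were higher and 6 lower in the knockout, where 6.56% of all genes were higher and 8.77% lower at that limit. The lower ones include Rab6b and Rab3a, which passed the detection filter through the control arrays alone. With detection required on all 4 arrays 2 were higher and 2 lower (18.2%, against 17.4% of all genes). Leaving out an array leaves 1 genotype with a single array, so no counts are given for those fits. The genotypes did not overlap for 20 Rab genes, 8 higher and 12 lower, or 48.8% against 50.1% of all genes (22% higher and 28.1% lower). The median change was -0.02 over the Rab genes and -0.04 over all genes. With background correction, quantile normalization and the detection filter, the share of Rab genes at either limit was near that of all genes. At an unadjusted p under 0.05 it was 22% against 15.7% without background correction and 24.4% against 15.7% with a larger offset. With no detection filter it was 27.8% against 11.4%, and with a detection p under 0.01 it was 16.7% against 16.3%. The share with median scaling was below that of all genes.

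In size as well, the changes of the Rab genes were near those of all genes. Only Rab6b differed by 2-fold or more, where 454 of all 11538 genes did. Of the 41 Rab genes, 32 differed by less than 0.5 on the log2 scale. For 29 Rab genes the 95% confidence interval lay wholly within a 2-fold change either way, and the same was true of 7113 of all genes (61.6%). The median absolute difference of a Rab gene was 0.25 between the genotype means (0.28 over all genes). Between replicates that of a Rab gene was 0.21 for controls and 0.22 for knockouts. The former is a difference between means of 2 arrays and the latter are differences between single arrays, so their sizes are not on 1 scale. Another scaling moved the whole distribution: with the arrays aligned on their medians instead of by quantiles, the median change was -0.70 over all genes and -0.72 over the Rab genes.

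**Figure D2:**
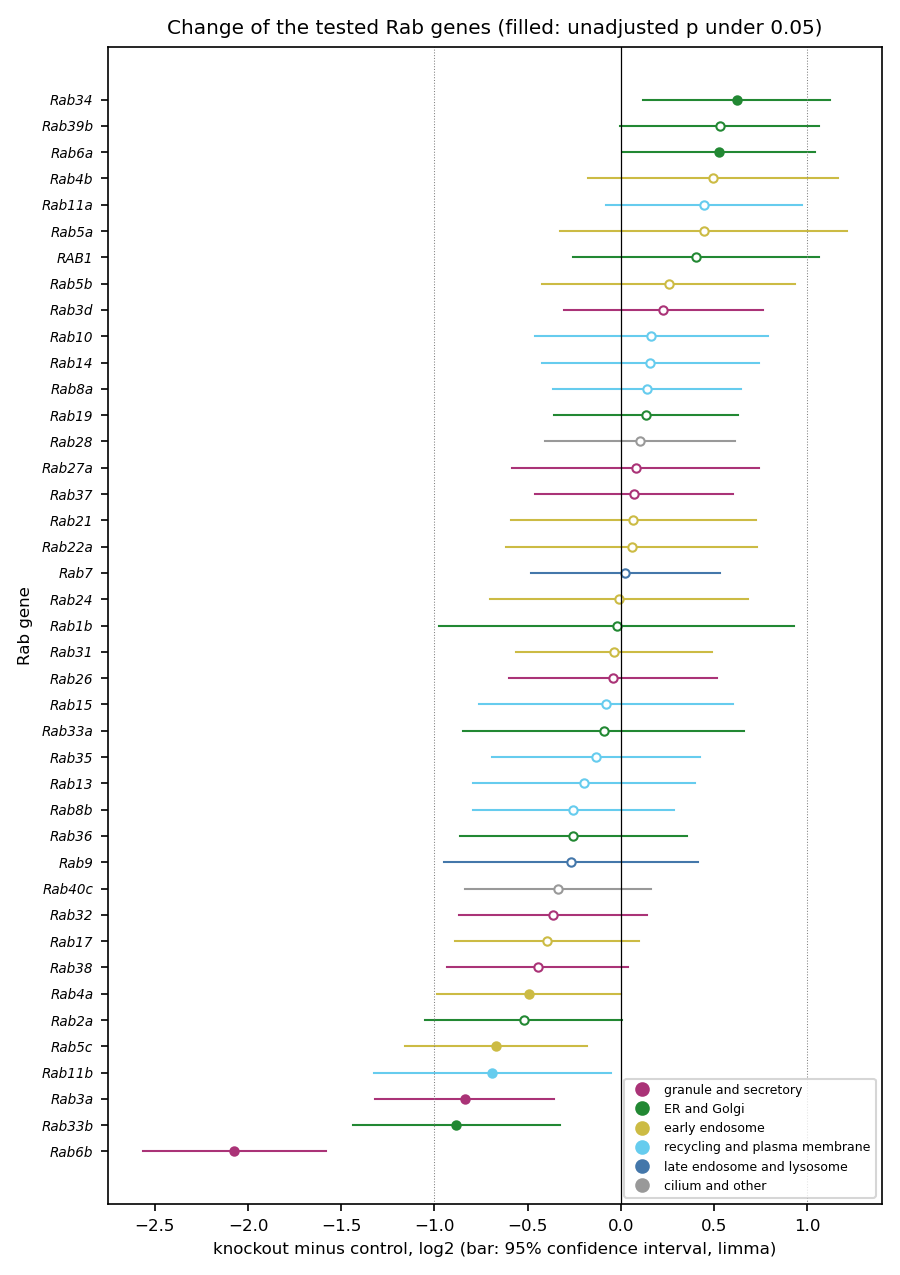
Change of the 41 tested Rab genes (y axis, coloured by role) as knockout minus control on the log2 scale (x axis), with 95% confidence intervals from limma and 2 arrays per genotype, filled where the unadjusted p is under 0.05. Rab6b lies alone at -2.07, and the other genes lie between -0.88 and 0.62. With median scaling the median change over all genes is -0.70.

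Rab6b was at a level of 6.62 and 6.61 for the 2 controls against 4.47 and 4.62 for the 2 knockouts. Both knockout arrays lay far below both control arrays, and the replicates of each genotype lay close together. This gave a change of -2.07 ± 0.20 (SE; 95% confidence interval -2.56 to -1.58), which missed the threshold (limma, adjusted p = 0.114). That adjusted p was the lowest over all genes, shared by 20 genes, and 21 genes had a larger decrease. In deposited intensity Rab6b was at 215.5 and 174.4 for the 2 controls against 98.9 and 107.8 for the 2 knockouts. The knockout values lay under the 95th percentile of the negative control probes, so the knockout level was not above background. The 4.21-fold difference is the estimate of this setting, its interval reaches smaller differences, and some other settings gave smaller ones. The standard error over beads was 6.68% and 3.54% of the deposited intensity, background included, for the 2 controls and 2.45% and 4.03% for the 2 knockouts. The change was -2.15 to -2.00 with any array left out, and its adjusted p was 0.195 to 0.604 in limma there.

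Markers of other cells moved beside Rab6b, and their part in its difference was not tested. All 8 megakaryocyte markers were lower at an unadjusted p under 0.05, with a summed linear level of 1719 and 1667 for the 2 controls against 605 and 543 for the 2 knockouts. Ppbp and Tubb1 lay under the detection limit on the knockout arrays. Of the 4 tested mast cell and basophil markers 3 were lower. The summed level of the 5 listed was 597 and 601 for the 2 controls against 327 and 322 for the 2 knockouts. That sum includes Ms4a2, which was not above background on any array. Of the 4 tested erythroid markers 3 were lower, with sums of 1705 and 1282 against 428 and 444. All 4 granulocyte-monocyte progenitor markers were higher, with sums of 9393 and 8592 for the 2 controls against 14667 and 21182 for the 2 knockouts. The sum of the 6 neutrophil markers was highest on knockout replicate 1 (15988) and lowest on knockout replicate 3 (1006), and the control sums were 1450 and 4348. The B cell list was at sums of 236 to 330 and the T cell list at 39.0 to 63.3, with the genotypes overlapping in both. Of the gate genes, Ly6a (Sca-1) differed by -0.20 ± 0.34 and Kit by -0.86 ± 0.21 (limma, adjusted p = 0.803 and 0.237). Mybl2, the targeted gene, differed by -0.18 ± 0.28, and the place of its probes is not known, so the genotypes rest on the labels.

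None of the granule and secretory Rabs passed the test with quantile normalization, and Rab6b did with median scaling. Of the 12 genes listed, 11 had a row and 8 were tested, Rab6b among them. Of these 8, 5 were lower and 3 higher, and 5 did not overlap (62.5%, against 50.1% of all genes). An unadjusted p under 0.05 was reached by 2 (25%, against 15.3% of all genes), Rab6b and Rab3a, neither detected on a knockout array. Both passed the detection filter through the control arrays alone, and Rab6b is also a Golgi Rab. The shares and the median of this list include both genes. The median change of the 8 was -0.20, against -0.01 for the 33 other Rab genes and -0.04 for all genes, a description with no test of the difference. Leaving out knockout replicate 1 gave a median of -0.31, leaving out knockout replicate 3 gave -0.12, and it was -0.04 with no detection filter.

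Rab27a recruits granules to the plasma membrane in cytotoxic lymphocytes and melanocytes. It was at 9.78 and 9.63 for the 2 controls against 10.09 and 9.48 for the 2 knockouts, with the knockout values on either side of the control values. The change was 0.08 ± 0.27 with a 95% confidence interval from -0.58 to 0.74 (limma, adjusted p = 0.906). With quantile normalization this interval excluded a 2-fold change, and with median scaling the change was -0.70. Rab3d, found on granules of exocrine and mast cells, was at 7.57 and 7.24 for the 2 controls against 7.62 and 7.65 for the 2 knockouts. Its knockout values lay just above the controls, by 0.23 ± 0.22 (limma, adjusted p = 0.633), and turned to -0.74 with median scaling, close to the median of all genes there.

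Rab32 and Rab38 act together in the biogenesis of melanosomes and platelet dense granules. Rab38 was at 9.36 and 9.49 for the 2 controls against 8.99 and 8.97 for the 2 knockouts. Rab32 was at 9.83 and 10.06 for the 2 controls against 9.59 and 9.57 for the 2 knockouts. In both genes the knockout arrays lay below both control arrays and close to each other. The changes were -0.45 ± 0.20 for Rab38 and -0.36 ± 0.20 for Rab32, and neither passed (limma, adjusted p = 0.351 and 0.434).

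Rab3a, the Rab of synaptic vesicle release, was at 5.16 and 5.12 for the 2 controls against 4.26 and 4.35 for the 2 knockouts. It was not above background on either knockout array, and the change was -0.84 ± 0.19 (limma, adjusted p = 0.237). Without background correction its change was -0.27. Rab37, known from mast cell granules, was at 4.77 and 5.08 for the 2 controls against 5.05 and 4.95 for the 2 knockouts, and Rab26, a Rab of granule maturation, at 4.55 and 4.53 against 4.70 and 4.30. Both lay near background on all arrays, and their genotypes overlapped.

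**Figure D3:**
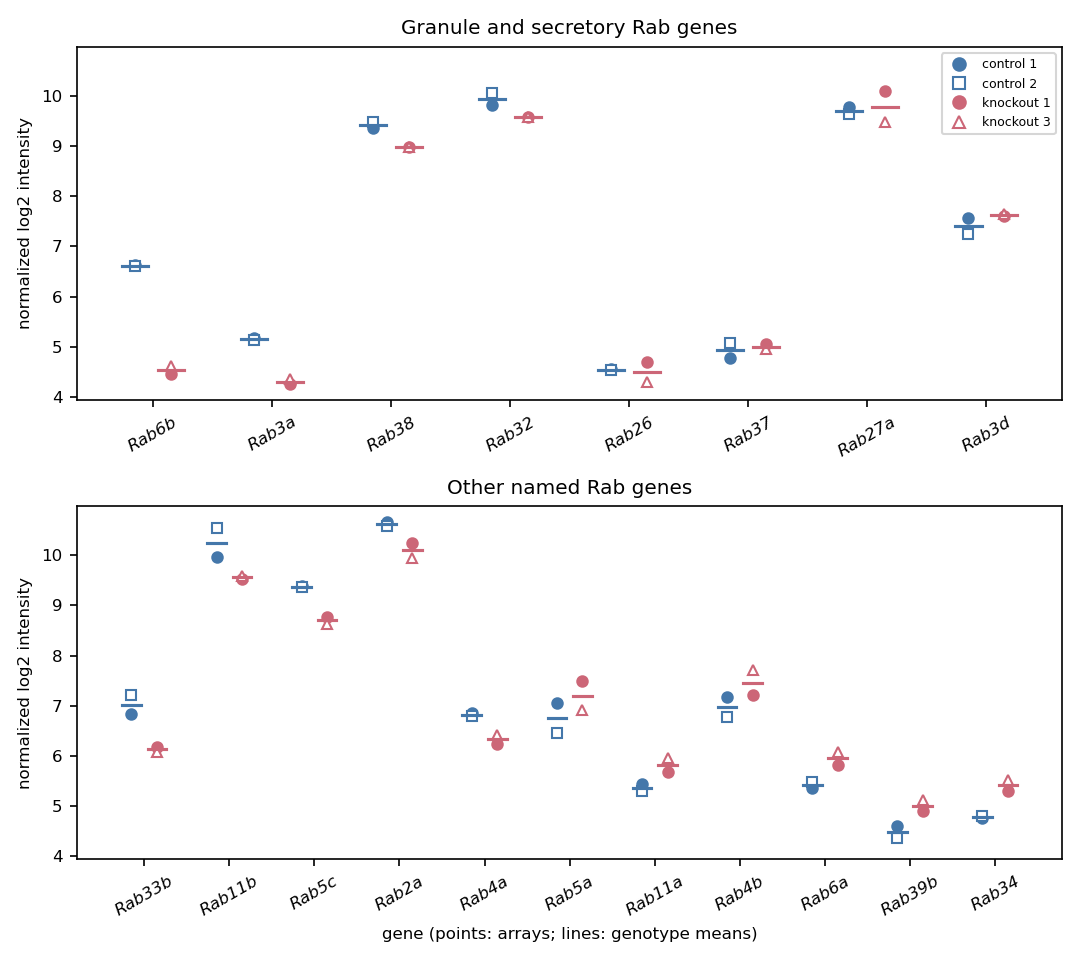
Level of each named Rab gene (x axis) on each array (y axis, normalized log2 intensity), with the granule and secretory Rabs in the upper panel, other named Rabs in the lower panel, and lines at genotype means. Rab6b separates from 6.62 and 6.61 to 4.47 and 4.62, while the Rab27a points of the genotypes overlap.

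Rabs of the endoplasmic reticulum and Golgi ranged from -0.88 (Rab33b) to 0.62 (Rab34). Of 15 rows 10 were tested, 5 higher and 5 lower, with a median change of 0.06. Rab33b, a Golgi Rab that also binds the autophagy factor Atg16l1, was at 6.83 and 7.21 for the 2 controls against 6.18 and 6.09 for the 2 knockouts. Both knockout values were lower, by 0.88 ± 0.22 on the log2 scale (change -0.88; limma, adjusted p = 0.245), and the change was -0.48 without background correction. Rab2a, which tethers membranes between the endoplasmic reticulum and the Golgi, was at 10.66 and 10.58 for the 2 controls against 10.25 and 9.95 for the 2 knockouts, a change of -0.52 ± 0.21 (limma, adjusted p = 0.330). Rab43 was outside the fit; tested as a row of its own it differed by -0.57 ± 0.20 (limma, adjusted p = 0.292), and the brighter row of the same gene by -0.58 ± 0.33. Rab1b, RAB1, Rab33a and Rab36 overlapped between genotypes, at changes of -0.02, 0.40, -0.09 and -0.25, and Rab19 differed by 0.13 ± 0.20.

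At the other end stood Rab34, Rab39b and Rab6a. Rab34, which positions lysosomes and takes part in cilium formation, was at 4.77 and 4.81 for the 2 controls against 5.30 and 5.52 for the 2 knockouts, higher by 0.62 ± 0.20 (limma, adjusted p = 0.276). Rab39b, best known from neurons, was at 4.59 and 4.36 for the 2 controls against 4.89 and 5.12 for the 2 knockouts, a change of 0.53 ± 0.21. Rab6a, which moves cargo from endosomes and within the Golgi, was at 5.36 and 5.47 for the 2 controls against 5.82 and 6.07 for the 2 knockouts. Its change was 0.53 ± 0.21 (limma, adjusted p = 0.318), and turned to -0.32 with median scaling, above the median of -0.70 of all genes there. These genes were dim: the deposited intensity of Rab6a was 124.6 and 115.8 for the 2 controls against 123.6 and 128.5 for the 2 knockouts, and without background correction the changes were 0.20 for Rab34, 0.16 for Rab39b and 0.21 for Rab6a.

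Early endosome Rabs differed in both directions. Of 11 rows 10 were tested, 5 higher and 5 lower, with a median of 0.02. Rab5c, an isoform of the Rab that drives fusion of early endosomes, was at 9.39 and 9.36 for the 2 controls against 8.78 and 8.63 for the 2 knockouts. The knockout arrays lay below both controls, by 0.67 ± 0.20 on the log2 scale (change -0.67; limma, adjusted p = 0.261). Rab4a, which sends cargo from early endosomes straight back to the surface, was at 6.85 and 6.80 for the 2 controls against 6.24 and 6.41 for the 2 knockouts, a change of -0.49 ± 0.20 (limma, adjusted p = 0.325). Rab4b was at 7.16 and 6.77 for the 2 controls against 7.21 and 7.71 for the 2 knockouts, and Rab5a at 7.05 and 6.46 against 7.49 and 6.91, changes of 0.50 ± 0.27 and 0.44 ± 0.31 (-0.49 and -0.55 with median scaling, both above the median of all genes there). Rab17, an epithelial Rab, was detected on the control arrays only and differed by -0.39 ± 0.20 (limma, adjusted p = 0.398). Rab31 differed by -0.04 ± 0.21 and Rab24, known from autophagy, by -0.01 ± 0.28. Rab21, Rab22a and Rab5b lay at 0.07, 0.06 and 0.26, with overlapping genotypes.

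Among the recycling and surface-directed Rabs, Rab11b was the gene at an unadjusted p under 0.05. Of 11 rows 9 were tested, 4 higher and 5 lower, with a median of -0.08. Rab11b, a Rab of the recycling endosome, was at 9.97 and 10.54 for the 2 controls against 9.53 and 9.60 for the 2 knockouts, a change of -0.69 ± 0.26 (limma, adjusted p = 0.305). Control replicate 2 was the higher one: the change was -0.40 without it and -0.98 without control replicate 1. Rab11a was at 5.44 and 5.29 for the 2 controls against 5.68 and 5.95 for the 2 knockouts, a change of 0.45 ± 0.21 that turned to -0.39 with median scaling. Rab8a and Rab8b, which steer vesicles to the surface, differed by 0.14 ± 0.20 and -0.25 ± 0.22. Rab35 and Rab14, both endosomal, differed by -0.13 ± 0.23 and 0.16 ± 0.24, within the spread between arrays. A second row that maps to Rab14 differed by -0.56 ± 0.28, so the rows of that gene disagree. Rab10, Rab13 and Rab15 lay at 0.16, -0.20 and -0.08, with overlapping genotypes.

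Late endosomal Rab7, which carries endosomes to lysosomes, was at 7.46 and 7.51 for the 2 controls against 7.62 and 7.39 for the 2 knockouts and differed by 0.03 ± 0.20. Rab9, which returns cargo from late endosomes to the Golgi, differed by -0.27 ± 0.27 and lay near background. Rab28, known from cilia, and Rab40c, which joins a ubiquitin ligase, differed by 0.10 ± 0.21 and -0.34 ± 0.20.

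The opposite signs within Rab6, Rab5, Rab4 and Rab11 led to a comparison, added after the values were seen, of every pair of tested Rab genes that share a number. There were 8 such families with 17 genes and 10 pairs. Within each array the level of one paralogue was subtracted from that of the other, which removes any shift the whole array has, and the difference was compared between genotypes. A difference between probes has no meaning of its own as a level, only its shift does. In 9 of 10 pairs the differences did not overlap between genotypes, where among all 820 pairs of tested Rab genes 54.6% did not. The pairs that prompted the comparison are among the 9, so the 2 shares are a description and not a test. The 9 also include the pairs of Rab6b and Rab3a, which passed the detection filter through the control arrays alone. In 8 of 10 pairs the paralogues had changes of opposite sign, as did 51% of the 820 pairs, and with median scaling 0 of 10 and 9.51% did. With 2 arrays against 2, the smallest two-sided p of an exact permutation test is 0.333, so no pair can pass, and paralogues may share probe sequence.

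Rab6a minus Rab6b was -1.26 and -1.13 for the 2 controls against 1.36 and 1.45 for the 2 knockouts. The shift was 2.60 (exact permutation p = 0.333, the smallest possible). It stayed between 1.03, without background correction, and 2.66 over the settings that tested both genes. Rab6b passed the detection filter through the control arrays alone and was not above background on the knockout arrays. Rab11a minus Rab11b was -4.52 and -5.25 for the 2 controls against -3.85 and -3.65 for the 2 knockouts, a shift of 1.14. Rab5a minus Rab5c was -2.34 and -2.89 for the 2 controls against -1.29 and -1.72 for the 2 knockouts, a shift of 1.11. In each of these pairs both knockout arrays lay above both controls.

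Rab4a minus Rab4b was -0.32 and 0.04 for the 2 controls against -0.96 and -1.30 for the 2 knockouts, a shift of -0.99. Rab3a minus Rab3d was -2.41 and -2.12 for the 2 controls against -3.35 and -3.30 for the 2 knockouts, a shift of -1.07, which was -0.36 with median scaling and -0.43 without background correction. In both pairs the knockout arrays lay below the controls, and Rab3a was not above background on either knockout array. Rab5b minus Rab5c shifted by 0.93, Rab33a minus Rab33b by 0.79, RAB1 (a row whose symbol could not be settled) minus Rab1b by 0.43 and Rab8a minus Rab8b by 0.39. Rab5a minus Rab5b overlapped between genotypes, at 0.34 and -0.50 for the 2 controls against 0.70 and -0.49 for the 2 knockouts.

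**Figure D4:**
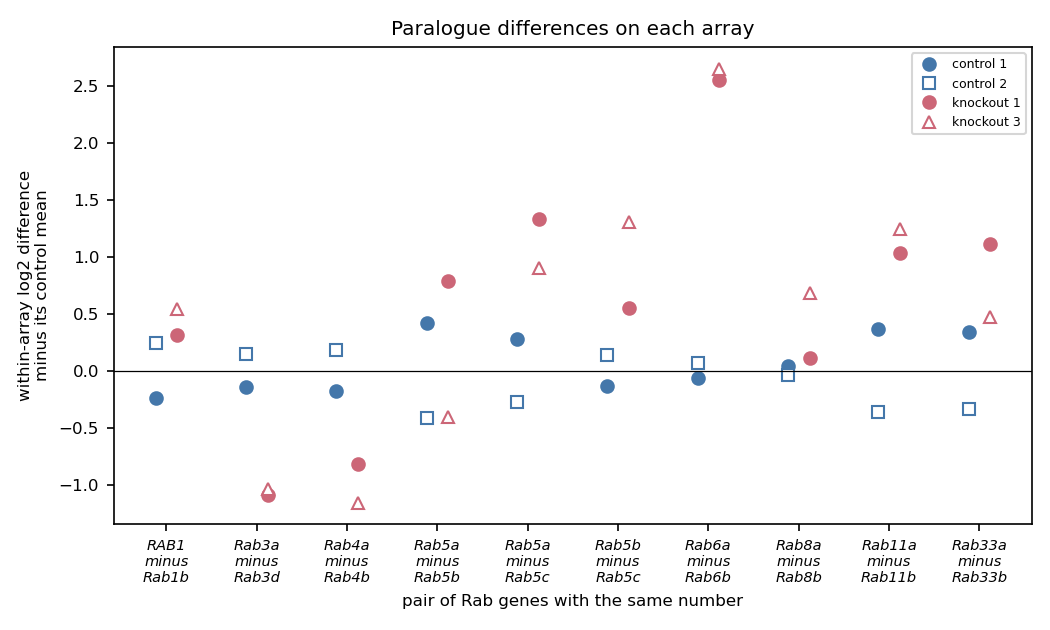
Within-array log2 difference of each pair of Rab genes with the same number (x axis), less its control mean (y axis), with 1 point per array. The Rab6a minus Rab6b points of the knockout arrays lie highest, a shift of 2.60, and Rab5a minus Rab5b is the pair whose genotypes overlap. Rab6b is not above background on the knockout arrays.

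The genes that load, inactivate, recycle and answer to Rabs were described from lists. Of 146 genes listed, 144 had a row and 114 were tested. At an unadjusted p under 0.05 there were 21, or 18.4% against 15.3% of all genes, 6 higher and 15 lower, and 0 passed the adjusted threshold in limma. Counts are not given for fits with an array left out, where a genotype has a single array. The genotypes did not overlap for 54 of the 114 tested genes (47.4%, against 50.1% of all genes). The median change was -0.12.

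Of the 7 genes of prenylation and membrane release 4 were tested, and Rabggta, a subunit of the enzyme that prenylates Rabs, was higher by 0.59 ± 0.20 on the log2 scale. Of 34 tested GEF genes 23 were lower and 11 higher, with a median of -0.17. An unadjusted p under 0.05 was reached by 6 (17.6%, against 15.3% of all genes), and 38.2% did not overlap (50.1% of all genes). Some DENN domain genes stood at both ends, and the others tested lay between, from -0.43 (Dennd3) to 0.14 (Dennd4b). Dennd1c, a GEF for Rab35, was at 8.36 and 9.03 for the 2 controls against 7.34 and 7.51 for the 2 knockouts. Its change was -1.27 ± 0.28. Dennd2d differed by -1.02 ± 0.23. Dennd2a, not above background in the knockout, differed by -1.31 ± 0.25, and Dennd2c, not above background on the control arrays, by 0.79 ± 0.22. Trappc9 and Trappc4, subunits of the TRAPP complexes that activate Rabs at the Golgi, differed by -0.60 ± 0.22 and 0.57 ± 0.22.

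Of 27 tested GAP genes 14 were higher and 13 lower, with a median of 0.04 and 4 at an unadjusted p under 0.05 (14.8%, against 15.3% of all genes). Rab3gap1, part of the GAP of Rab3, and Rabgap1 differed by -0.72 ± 0.19 and -0.50 ± 0.19, and Tbc1d7 and Tbc1d1 by 0.67 ± 0.23 and 0.60 ± 0.22. The detection p of Tbc1d7 was under 0.05 on the control arrays only. Of 24 tested effectors 10 were higher and 14 lower, with a median of -0.09. Uso1, the Golgi tether that binds Rab1, differed by 0.95 ± 0.29, and Rilpl1 by -0.87 ± 0.30. Unc13d encodes Munc13-4, the Rab27a effector that primes granules for release. It was at 7.54 and 7.78 for the 2 controls against 6.96 and 7.17 for the 2 knockouts, a change of -0.60 ± 0.21 (limma, adjusted p = 0.295). Lrrk2, a kinase of Rabs, was not above background in the knockout and differed by -0.52 ± 0.20.

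Of 25 tested genes of granule fusion 21 were lower and 4 higher, where 53.6% of all genes were lower, and the median was -0.17. An unadjusted p under 0.05 was reached by 5, all lower (20%, against 15.3% of all genes in either direction and 8.77% lower). The genotypes did not overlap for 40% of the list, against 50.1% of all genes. Nbeal2, needed for platelet alpha-granules, differed by -0.95 ± 0.24, and Vamp4, a SNARE, by -0.83 ± 0.20. Stxbp3, of the Munc18 family that binds syntaxins, differed by -0.90 ± 0.29. The megakaryocyte markers given beside Rab6b were lower on the same arrays, and their part in this list was not tested.

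**Figure D5:**
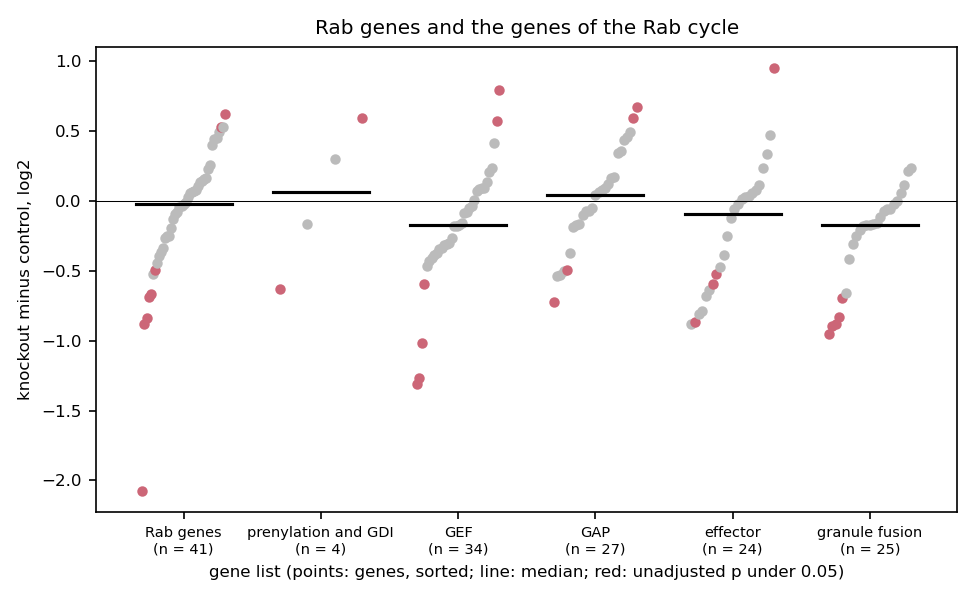
Change of the 41 tested Rab genes and of the tested genes of the Rab cycle (y axis, knockout minus control, log2), by list (x axis), with each gene as a point, red at an unadjusted p under 0.05, and a line at the median. The medians lie between -0.17 and 0.07 and Rab6b is the lowest point of all, at -2.07; with median scaling the median change over all genes is -0.70.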

How the data were processed

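Total RNA of LSK+ cells was amplified to biotinylated cRNA and hybridised to Illumina bead arrays, 1 per sample, per the labels' protocols. The deposited gene table holds 1 intensity per gene name without background subtraction or normalization, per the file headers and values, together with a detection p-value and the standard error over beads (a signal, in units of intensity). How probes were combined is not given in the sources used here. A second deposited table, of probe values, gives intensity under probe identifiers that no table used here pairs with genes (column medians 94.1 to 94.2), and served no comparison. Signals were background-corrected with the 936 negative control probes (normexp, offset 16), quantile-normalized and put on the log2 scale with neqc (limma 3.58.1, R 4.3.3). Kept were genes detected (p under 0.05) on at least 2 of 4 arrays, 1 row per current symbol (the row with the highest mean), and tested two-sided with lmFit and eBayes without covariates (3.72 prior degrees of freedom), with a threshold of 0.05 after Benjamini-Hochberg adjustment. The procedure was checked on simulated data. Names were updated through RefSeq (GRCm38.p6): 16223 rows matched a current symbol, 5684 an older one, 868 a gene identifier and 8079 none. The row Rab1 matched 2 genes as an older name and is kept as written. Intensities have no count depth, so the number of arrays limits precision. The Rab genes, the lists and the rule for named genes were chosen with earlier results of these data known. Named are all granule and secretory Rabs, Rabs without overlap at an unadjusted p under 0.05, the 6 largest changes per direction, the 5 brightest, and up to 4 per direction in each list of the Rab cycle. Some genes that the rule names are not reported here.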

Additional observations from a re-analysis of the deposited data

How the results depend on the processing

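No paired analysis was possible because the controls carry replicate numbers 1 and 2 and the knockouts 1 and 3, so only 1 number is shared. No slide was named, so no block for slides was run. The count of Rab genes past the adjusted threshold was 0 under all alternatives except median scaling, where it was 4 (Rab6b at -2.53, Rab33b at -1.79, Rab11b at -1.49 and Rab4a at -1.44). With that scaling 940 of all genes passed (8.15%) and their median was -0.70. There 0 Rab genes were higher and 14 lower at an unadjusted p under 0.05 (0.173% and 37.9% of all genes), 32 did not overlap (78%, against 69.9% of all genes), 66 of 114 genes of the Rab cycle passed that limit (38% of all genes), and the medians were -0.72 (all Rabs) and -0.92 (granule Rabs). Also there Rab11a was at -0.39, Rab27a at -0.70, Rab37 at -0.37, Rab3d at -0.74, Rab4b at -0.49, Rab5a at -0.55 and Rab6a at -0.32. The higher Rab genes at that limit numbered 0 without background correction (9 lower). They numbered 1 with offset 50 (9 lower), cyclic loess (8 lower), detection p under 0.01 (5 lower) and trend and robust eBayes (6 lower). In that order, the Rab shares in either direction were 22%, 24.4%, 22%, 16.7% and 17.1%. Those of all genes were 15.7%, 15.7%, 15.3%, 16.3% and 16.8%. With detection on all 4 arrays, where fewer genes are tested, 2 Rab genes were higher and 2 lower (18.2%, against 17.4% of all genes). There 13 of 70 Rab cycle genes passed. With no filter, where more are tested, 4 Rab genes were higher and 11 lower (27.8%, against 11.4% of all genes). There 34 of 144 Rab cycle genes passed, and the granule median was -0.042. With a detection p under 0.01 the granule median was -0.36. With each array left out, the ranges were 0 to 1 higher and 3 to 4 lower Rab genes, 29 to 32 without overlap (3 arrays overlap less often), medians of -0.090 to 0.034 (all Rabs) and -0.31 to -0.12 (granule Rabs), and 8 to 20 Rab cycle genes. Changes of sign there were Rab37 (-0.080 without control replicate 1, range to 0.23), Rab27a (-0.22 without knockout replicate 1, range to 0.38) and Rab26 (0.16 without knockout replicate 3, range from -0.24). The cause of the other shifts was not tested. Of the 19 named Rab genes, Rab6b, Rab33b, Rab3a, Rab11b, Rab5c, Rab2a, Rab4a, Rab38, Rab32, Rab34 and Rab39b kept their direction under all alternatives that tested them. Over all genes 17 passed with detection on all 4 arrays, 15 with trend and robust eBayes and 3 with cyclic loess, none a Rab gene. Dim genes are limited by signal over background.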

Other observations

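In 3 equal classes of mean level, all genes had a median change of -0.13, 0.00 and 0.03 from the dimmest to the brightest, and the 12, 13 and 16 Rab genes in them had medians of -0.08, 0.16 and -0.08. Tested under the filter on intensity above the negative controls, Rab12 differed by 0.24 ± 0.21 and Rab18, a Rab of lipid droplets and the endoplasmic reticulum, by -0.07 ± 0.27 (limma, adjusted p = 0.598 and 0.921). The largest difference of a Rab gene between knockout arrays was in Rab33a, with 5.17 on replicate 1 and 4.44 on replicate 3.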
